A study of Mus musculus with 12 samples.

Results

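The genes described here are 10 members of the fibroblast growth factor (FGF) pathway, chosen by symbol out of 24147 genes in the count files: the receptors Fgfr1, Fgfr2 and Fgfr3, the ligands Fgf1 and Fgf2, the feedback inhibitors Spry1, Spry2, Spry4 and Dusp6, and the transcription factor Etv5. All 10 had a row in every library and all 10 passed the filter on low counts, which left 14560 genes for testing. RNA was sequenced from lens capsules with their attached lens epithelial cells, taken from mice aged 2 months in a model of cataract surgery in which the fiber cells of the lens are removed and the epithelium is left behind. The 12 libraries formed 4 groups of 3. FNcKO mice, conditional knockouts for fibronectin on a mixed C57BL/6, 129 and FVB/N background, were sampled at 48 h and at 0 h after fiber cell removal. Wild type (WT) mice of strain C57BL/6 were likewise sampled at 48 h and at 0 h. Genotype and strain background coincided, so that they cannot be told apart in any comparison of FNcKO with WT. The sources used here do not give the Cre driver or the number of animals in a library, so that p-values measure the spread between these libraries. The design text calls the libraries of a group biological triplicates.

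FGF ligands bind receptor tyrosine kinases together with heparan sulfate, and the bound receptors pass the signal through the adaptor Frs2, Ras and Raf to the kinases MEK and ERK. ERK signalling switches on its own inhibitors, among them the Sprouty proteins, which block the path between receptor and Raf, and Dusp6, a cytoplasmic phosphatase that removes the activating phosphates from ERK, so that the levels of these genes are widely read as a record of pathway activity. In the lens, FGF from the vitreous drives epithelial cells at the equator to become fiber cells, and mice that lack several FGF receptors in the lens form fiber cells poorly.

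To show the regulatory sequence in front of some of the genes that changed in the same direction in both genotypes, the 250 bases before the RefSeq start were taken from the RefSeq promoter table (GRCm38.p6, the patched mm10 assembly). A window was found for 7 of the 10 genes, Fgfr2, Fgfr3, Fgf2, Spry1, Spry2, Dusp6 and Etv5, of which Fgfr3 and Etv5 had a pair each, making 9 windows. The windows that end at the start listed in the count files are printed for Dusp6, which was higher at 48 h, and for Fgfr2 and Fgfr3, which were lower. Capitals mark the core of the motif bound by ETS factors such as Etv5, written GGAAG, on either strand.
Dusp6: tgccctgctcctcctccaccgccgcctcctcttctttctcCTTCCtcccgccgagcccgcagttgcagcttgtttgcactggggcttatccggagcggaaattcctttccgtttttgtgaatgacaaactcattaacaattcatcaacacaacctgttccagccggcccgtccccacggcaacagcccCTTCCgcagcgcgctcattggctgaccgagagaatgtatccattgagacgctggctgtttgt
Fgfr2: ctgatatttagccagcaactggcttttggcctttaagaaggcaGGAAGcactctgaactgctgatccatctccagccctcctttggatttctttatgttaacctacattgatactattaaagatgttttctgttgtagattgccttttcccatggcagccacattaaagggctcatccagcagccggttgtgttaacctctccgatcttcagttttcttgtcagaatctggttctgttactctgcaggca
Fgfr3: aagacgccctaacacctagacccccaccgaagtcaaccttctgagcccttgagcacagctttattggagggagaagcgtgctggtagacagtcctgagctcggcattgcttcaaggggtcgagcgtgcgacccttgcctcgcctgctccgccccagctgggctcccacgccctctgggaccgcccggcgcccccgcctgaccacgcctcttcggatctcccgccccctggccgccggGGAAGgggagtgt
The Dusp6 window lies at chr10:99262981-99263230 on the plus strand, the Fgfr2 window at chr7:130266809-130267058 on the minus strand and the Fgfr3 window at chr5:33721474-33721723 on the plus strand. Dusp6 held the core 2 times, both on the minus strand, with first bases 210 and 62 bases before the start. Fgfr2 and Fgfr3 held it 1 time each, at 207 and 13 bases before the start. Of the 9 windows, 5 held GGAAG (of the 4 genes Fgfr2, Fgfr3, Dusp6 and Etv5), against 64.1% of 32851 promoter windows of the same length, so the short core is common. Fgf2, also called higher at 48 h in both genotypes, had a window without GGAAG, which is not printed. No window was found for Fgf1 and Spry4, which were called in both genotypes as well. None of the 9 held the longer ETS site CCGGAAG (6.91% of all windows), the AP-1 site TGANTCA (6.75%), the CRE site TGACGTCA (1.55%) or a CArG box (1.47%), each searched on both strands. Every CCGGAAG also counts as a GGAAG.

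The libraries held 8368160 to 10862573 counts assigned to genes. Levels are given as CPM (counts per 1000000 counts), scaled by TMM factors that ran from 0.754 to 1.165. Fn1, the targeted fibronectin gene, had 146, 298 and 688 CPM in FNcKO at 48 h, against 1515, 528 and 979 CPM in WT at 48 h, and 16.8, 9.81 and 8.32 CPM in FNcKO at 0 h, against 19.0, 23.1 and 15.5 CPM in WT at 0 h. Its highest FNcKO library at 48 h therefore lay above the lowest WT library, while the 0 h groups overlapped as well; the labels do not say which exons are deleted. In a joint table of 9 libraries, also deposited, the column named for WT 0 h replicate 1 held the counts of FNcKO 0 h replicate 1 for all 24147 genes. The single-library files were used, and a fit without both libraries was among the alternatives. Of the calls of the 10 genes at 48 h over 0 h, those of Fgf2 in both genotypes and of Fgfr3 in FNcKO were lost in it. Calls of single genes outside the 10 were not followed in the alternatives, so how they fare in this fit is not known. Bst1, chosen after its values were seen, had 134 CPM in the file of WT 0 h replicate 1 and 110 and 184 CPM in the other WT 0 h libraries, against 7.83 to 11.6 CPM in FNcKO at 0 h. Lens markers were detected, while Cited1 and Krt18 of the epithelial list and Birc7, Dnase2b, Cryga, Cryge and Crygf of the fiber list averaged at most 20.9 CPM in each group, with Crygf at 0 counts in FNcKO at 48 h. Pax6, a transcription factor of the lens epithelium, averaged 355 ± 55.4 CPM in FNcKO at 48 h, 514 ± 7.46 CPM in FNcKO at 0 h, 372 ± 20.1 CPM in WT at 48 h and 456 ± 48.4 CPM in WT at 0 h (SD, n = 3 each). The summed level of 23 fiber cell markers was lower at 48 h, at 11591 to 104355 CPM in FNcKO at 48 h and 135168 to 290332 CPM in FNcKO at 0 h, and at 13752 to 60485 CPM in WT at 48 h and 112034 to 196618 CPM in WT at 0 h. The lowest of these sums belonged to FNcKO 48 h replicate 3 and WT 48 h replicate 1.

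After fiber cell removal the pathway genes did not move together. At 48 h the receptors Fgfr2 and Fgfr3 and the ligand Fgf1 were lower than at 0 h, the inhibitors Dusp6 and Spry4 and the ligand Fgf2 were higher, and Fgfr1, Spry1, Spry2 and Etv5 were not called, in FNcKO and in WT alike. The count was 3 higher, 3 lower and 4 not called of 10 genes in each genotype (edgeR quasi-likelihood test, Benjamini-Hochberg adjusted p under 0.05 over all tested genes). Among all tested genes 24.8% were called in FNcKO, with 14.9% higher and 9.9% lower, and 32.6% were called in WT, with 19.1% higher and 13.5% lower. The libraries at 48 h and 0 h did not overlap for 7 of the 10 genes in FNcKO and for 7 of 10 in WT, where 37.5% (FNcKO) and 51.5% (WT) of all tested genes had no overlap. With library totals in place of TMM, 3408 genes were called higher and 727 lower in FNcKO and 3888 higher and 1211 lower in WT, against 2169 higher and 1442 lower in FNcKO and 2775 higher and 1970 lower in WT with TMM, and the median of all tested genes moved to 0.29 in FNcKO and 0.23 in WT. The median log2 fold change of the 10 genes was 0.09 in FNcKO and 0.29 in WT, beside 0.00 and 0.02 over all tested genes.

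**Figure D1:**
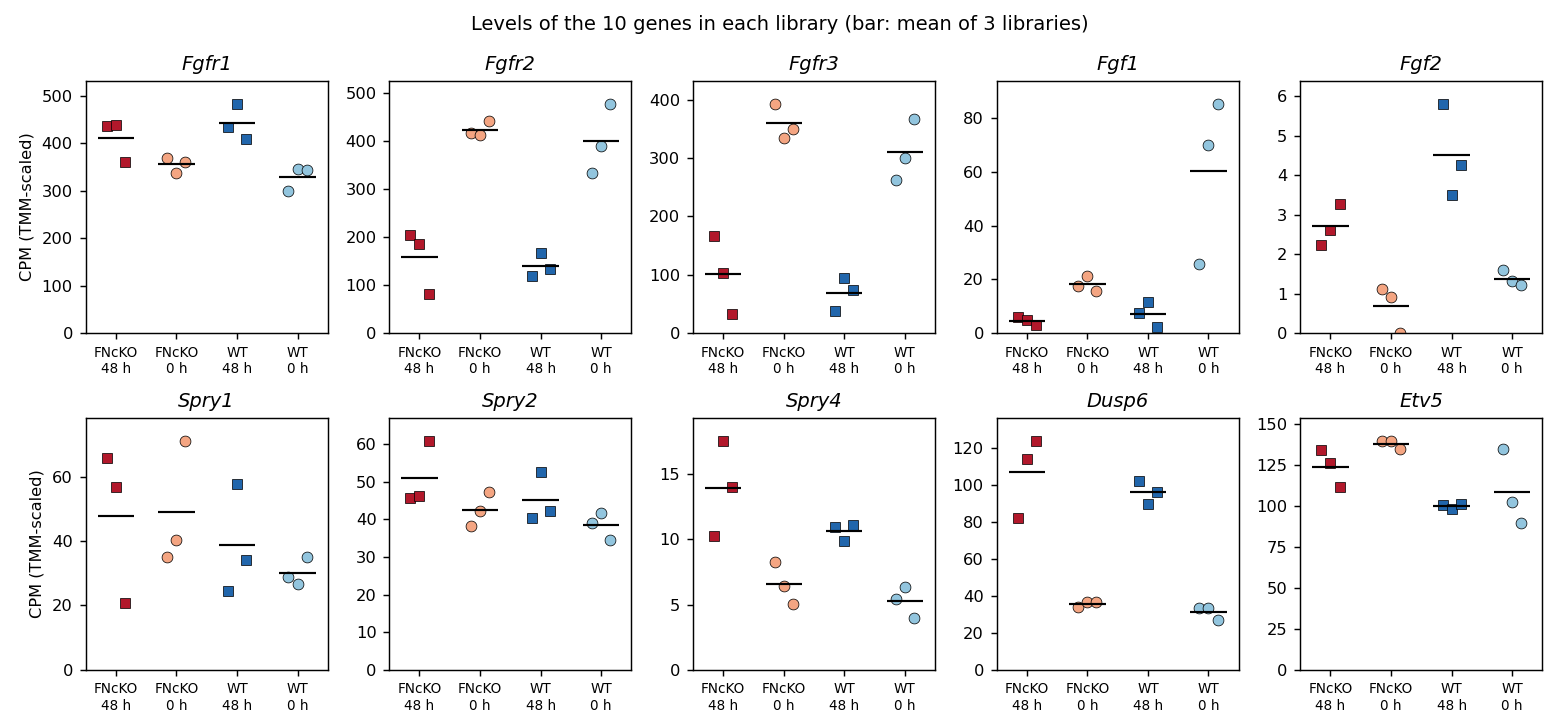
Level of each of the 10 genes in each library, in TMM-scaled CPM (vertical axis from 0), by group on the horizontal axis. Each point is 1 library and each bar the mean of 3. Fgfr2, Fgfr3 and Fgf1 sit lower at 48 h than at 0 h and Dusp6, Spry4 and Fgf2 higher in both genotypes, with no overlap between the times.

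**Figure D2:**
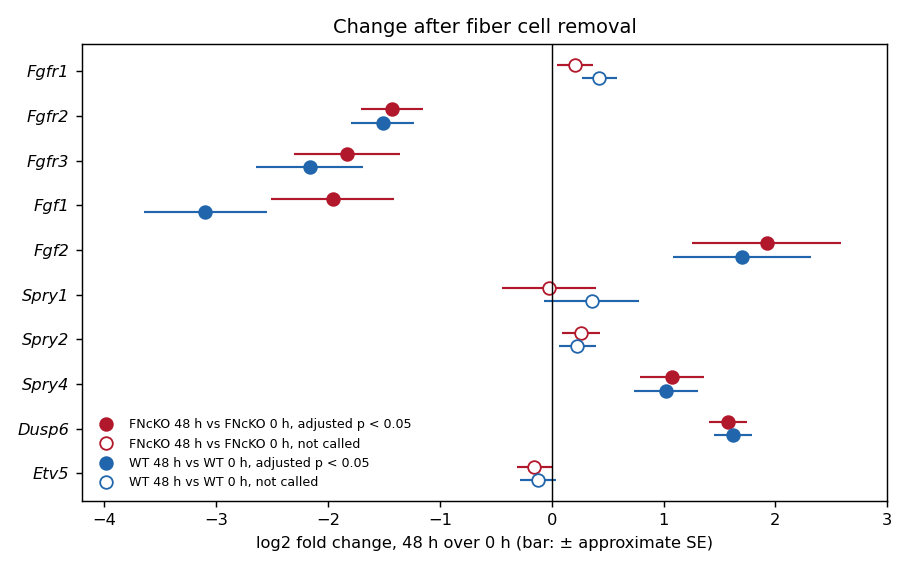
Log2 fold change of each gene at 48 h over 0 h (horizontal axis), with FNcKO above WT for each gene. Bars are the approximate standard error and filled points have an adjusted p under 0.05. The 2 genotypes lie on the same side of 0 for each filled gene, and Fgf1 shows the widest gap between them.

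Fgfr1, Fgfr2 and Fgfr3 encode the receptor tyrosine kinases of the family. Fgfr2 (chr7:130162451-130266808, mm10) had 205, 186 and 82.4 CPM in FNcKO at 48 h, against 418, 413 and 442 CPM in FNcKO at 0 h. WT lenses had 120, 168 and 134 CPM at 48 h, against 334, 390 and 478 CPM at 0 h. Every 48 h library was below every 0 h library, and FNcKO 48 h replicate 3 was the lowest of all. The log2 fold change was −1.43 ± 0.28 in FNcKO (SE, adjusted p = 0.00279), a 2.69-fold lower level, and −1.51 ± 0.28 in WT (adjusted p = 0.00147), a 2.85-fold lower level. This call held in all 22 alternatives of processing tried, with log2 values of −1.66 to −1.12 in FNcKO and −1.66 to −1.31 in WT.

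Fgfr3 (chr5:33721724-33737068) moved in the same direction and varied more between libraries. It had 167, 103 and 32.9 CPM in FNcKO at 48 h, against 393, 335 and 350 CPM in FNcKO at 0 h. In WT the levels were 38.3, 95.0 and 74.0 CPM at 48 h, against 263, 300 and 366 CPM at 0 h. The times did not overlap in either genotype, but within FNcKO at 48 h the highest and lowest library stood far apart. The log2 fold change was −1.83 ± 0.47 in FNcKO (adjusted p = 0.0160) and −2.16 ± 0.48 in WT (adjusted p = 0.00571). Without both 0 h replicate 1 libraries the FNcKO value was −1.76 with an adjusted p of 0.0566, while the WT call stayed (−2.27, adjusted p = 0.0171).

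Fgfr1 did not fall with the other receptors. It had 436, 439 and 360 CPM in FNcKO at 48 h, against 370, 338 and 360 CPM in FNcKO at 0 h, and these libraries overlapped. In WT it had 435, 483 and 410 CPM at 48 h, against 299, 345 and 344 CPM at 0 h, with every 48 h library above every 0 h library. The log2 fold change was 0.21 ± 0.16 in FNcKO (adjusted p = 0.369) and 0.43 ± 0.16 in WT (adjusted p = 0.0549), so neither was called. In WT it was called by DESeq2 (log2 0.40, adjusted p = 0.0159), with library totals in place of TMM (0.63, adjusted p = 0.0130) and without FNcKO 48 h replicate 3 (0.43, adjusted p = 0.0438). An entry named LOC102633315 overlaps Fgfr1 by 7411 bases, and the labels do not give the strand setting of the counting, so that reads of the pair cannot be told apart.

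Per length, the receptor mix of the 48 h libraries differed from that of the 0 h libraries. In RPKM, which also divides the count by the gene's coding length, the receptors were near each other at 0 h: Fgfr3 averaged 81.7 ± 6.80, Fgfr2 79.4 ± 2.87 and Fgfr1 70.9 ± 3.18 RPKM in FNcKO (SD, n = 3). In WT at 0 h the means were 74.9 ± 13.6 for Fgfr2, 70.4 ± 11.9 for Fgfr3 and 65.6 ± 5.27 RPKM for Fgfr1, with overlapping libraries. At 48 h Fgfr1 led by a wide margin, at 81.9 ± 8.93 RPKM in FNcKO and 88.1 ± 7.40 RPKM in WT, where Fgfr2 had 29.5 ± 12.3 and 26.3 ± 4.63 RPKM and Fgfr3 had 22.97 ± 15.2 and 15.7 ± 6.52 RPKM. Fgfr1 made up 63.0% ± 11.6 of the summed level of the 3 receptors in FNcKO at 48 h, against 30.6% ± 0.08 in FNcKO at 0 h, and 68.1% ± 4.85 in WT at 48 h, against 31.3% ± 2.50 in WT at 0 h. The groups did not overlap in these shares. A two-sided exact permutation test gave p = 0.1 for each of 6 receptor shares, also after Benjamini-Hochberg adjustment. That is the smallest p that 3 against 3 libraries allow, and groups without overlap must give it, so the test adds nothing to the lack of overlap. The shares of the 3 receptors add up to the whole in each library, so they are not separate tests. The summed receptor level was 134 ± 35.6 RPKM in FNcKO at 48 h, against 232 ± 10.3 RPKM in FNcKO at 0 h, and 130 ± 16.8 RPKM in WT at 48 h, against 211 ± 29.8 RPKM in WT at 0 h.

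**Figure D3:**
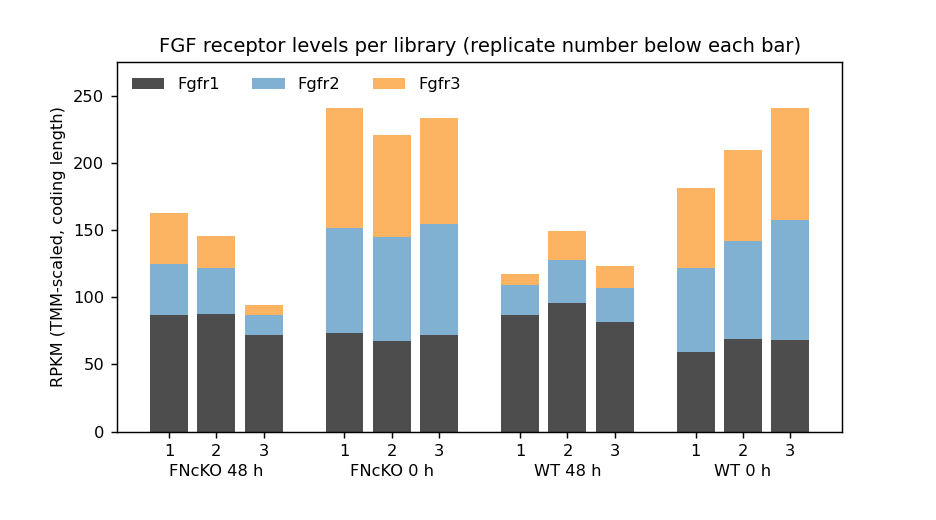
Summed level of Fgfr1, Fgfr2 and Fgfr3 in each library, in TMM-scaled RPKM (vertical axis from 0), stacked by receptor and grouped on the horizontal axis. The Fgfr2 and Fgfr3 segments are smaller in each 48 h library than in each 0 h library, and FNcKO 48 h replicate 3 has the lowest sum, 94.5 RPKM.

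The fiber cell marker sum, most of which was Cryaa and other abundant crystallins, moved with Fgfr2 and Fgfr3 at 48 h. Fgfr1 followed it less closely. It spanned 360 to 483 CPM at 48 h and did not have the order of the sum, but was likewise lowest in FNcKO 48 h replicate 3. Ordered by that sum, the 6 libraries at 48 h had the same order in Fgfr3 and in Fgfr2, with Fgfr3 at 32.9 CPM in FNcKO 48 h replicate 3 at the low end and 167 CPM in FNcKO 48 h replicate 1 at the high end. At 0 h neither Fgfr3 nor Fgfr2 had the order of the sum over all libraries. The 4 libraries with the lowest sums (112034, 135168, 141563 and 155607 CPM) had Fgfr3 in the same order, at 300, 335, 366 and 393 CPM. Fgfr2 was out of order in them, at 390, 413, 478 and 418 CPM. The remaining libraries did not follow the order in Fgfr3. These were FNcKO 0 h replicate 3, with the highest sum, 290332 CPM, and 350 CPM of Fgfr3, and WT 0 h replicate 1, with 196618 CPM and 263 CPM of Fgfr3, the library whose column in the joint table holds other counts. At nearly equal sums, FNcKO 48 h replicate 1 (104355 CPM) had 167 CPM of Fgfr3 and 205 CPM of Fgfr2, against 300 and 390 CPM in WT 0 h replicate 2 (112034 CPM). Without FNcKO 48 h replicate 3 and WT 48 h replicate 1, the log2 fold change of Fgfr2 was −1.12 in FNcKO (adjusted p = 0.00323) and −1.43 in WT (adjusted p = 0.000496), and that of Fgfr3 −1.42 in FNcKO (adjusted p = 0.00208) and −1.89 in WT (adjusted p = 0.000243). Of the 23 fiber markers 9 were called lower in FNcKO and 9 in WT, with none higher. Of 10 epithelial markers, which include Foxe3, Pax6 and Cdh1, 6 were called lower and 1 higher in FNcKO and 3 lower and 1 higher in WT, and their sum was also lowest in these 2 libraries, at 4851 CPM in FNcKO 48 h replicate 3 and 5534 CPM in WT 48 h replicate 1. Most of that sum was Cryab, a crystallin, at 9567 CPM in FNcKO at 48 h, 33560 CPM in FNcKO at 0 h, 6399 CPM in WT at 48 h and 25178 CPM in WT at 0 h on average, so it does not speak for the whole list. Pax6, called lower in FNcKO only, spanned 294 to 403 CPM in FNcKO at 48 h and 353 to 393 CPM in WT at 48 h. Other markers spread more widely for their level. Foxe3 spanned 5.08 to 47.8 CPM in FNcKO at 48 h and 9.99 to 39.1 CPM in WT at 48 h. Cdh1 and Npnt, called lower in both genotypes, spanned 143 to 346 and 37.2 to 108 CPM in FNcKO at 48 h. The summed level of 14 leukocyte markers was 244, 347 and 583 CPM in FNcKO at 48 h and 1255, 505 and 356 CPM in WT at 48 h (replicates 1 to 3). In each group it was highest in the library with the lowest fiber marker sum. The other WT 48 h libraries did not have the inverse order of the fiber marker sum. The part of these markers in the receptor changes was not tested, and in bulk RNA fewer cells of a type and less RNA per cell cannot be told apart.

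**Figure D4:**
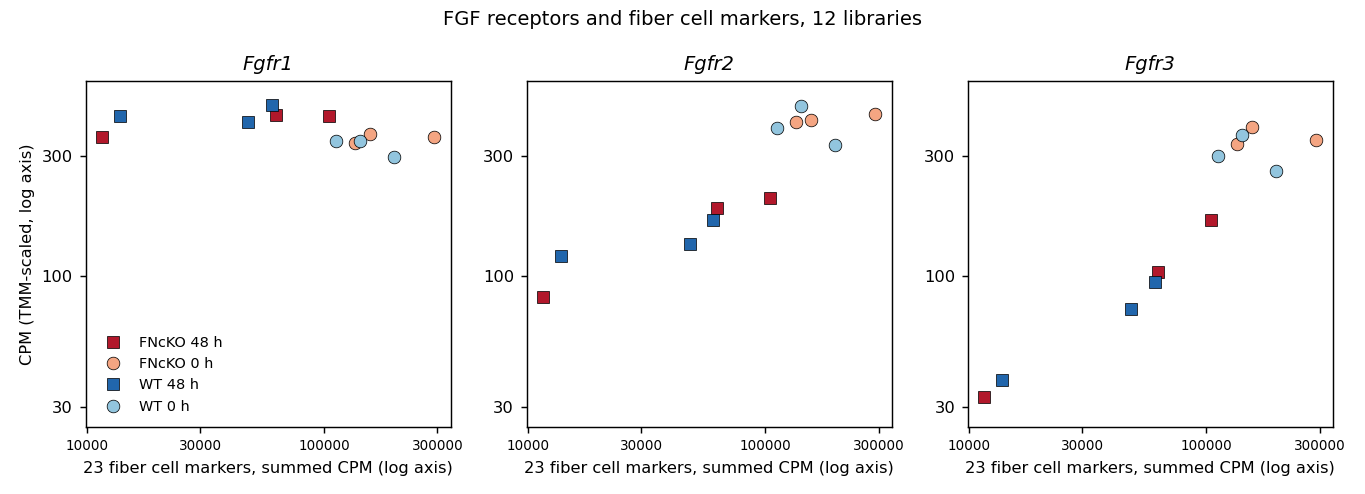
Level of Fgfr1, Fgfr2 and Fgfr3 (vertical, TMM-scaled CPM on a log axis) against the summed level of 23 fiber cell markers (horizontal, CPM on a log axis) in 12 libraries. Squares are 48 h libraries and circles 0 h libraries. Among the squares Fgfr3 runs from 32.9 to 167 CPM in the order of the marker sum, among the circles it stays between 263 and 393 CPM, and Fgfr1 stays between 299 and 483 CPM in all.

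The ligands moved in opposite directions from each other. Fgf1, the ligand that binds all FGF receptors, had 6.02, 4.81 and 3.17 CPM in FNcKO at 48 h, against 17.6, 21.4 and 15.6 CPM in FNcKO at 0 h. WT lenses had 7.42, 11.6 and 2.08 CPM at 48 h, against 25.7, 70.3 and 85.4 CPM at 0 h. All 48 h libraries were below all 0 h libraries of their genotype, and WT 0 h replicate 1 stood well below the other WT 0 h libraries. Its log2 fold change was −1.96 ± 0.55 in FNcKO (adjusted p = 0.0231), a 3.89-fold lower level, and −3.10 ± 0.55 in WT (adjusted p = 0.00157), an 8.56-fold lower level and the largest change among the 10 genes. Without both 0 h replicate 1 libraries the values were −1.99 (adjusted p = 0.0329) and −3.46 (adjusted p = 0.00245). The WT call held in all 22 alternatives. The FNcKO call was lost in 6 of 22, with adjusted p from 0.0513 without FNcKO 0 h replicate 1 to 0.142 without both 48 h libraries lowest in fiber markers, and with values of −2.19 to −1.70 over all alternatives. The predicted gene Gm5820 overlaps Fgf1 by 26244 bases, and reads of the pair cannot be told apart without the strand setting.

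Fgf2, a ligand stored in basement membranes such as the lens capsule, was close to the limit of detection. It held 21, 24 and 31 counts in FNcKO at 48 h, against 10, 8 and 0 counts in FNcKO at 0 h. In WT it held 61, 36 and 41 counts at 48 h, against 16, 13 and 10 counts at 0 h. The mean level was 2.71 ± 0.53 CPM in FNcKO at 48 h and 0.68 ± 0.60 CPM in FNcKO at 0 h, and 4.52 ± 1.18 CPM in WT at 48 h and 1.38 ± 0.21 CPM in WT at 0 h, where 3 counts correspond to 0.286 to 0.430 CPM. This gave a log2 fold change of 1.92 ± 0.67 in FNcKO (adjusted p = 0.0497) and 1.70 ± 0.62 in WT (adjusted p = 0.0489), both just under the threshold. The call was lost in 20 of 22 alternatives in FNcKO and in 16 of 22 in WT, with adjusted p up to 0.145 and 0.146, while the direction stayed in each.

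Dusp6 (chr10:99263231-99267489) was the feedback gene with the clearest rise. It had 82.0, 114 and 124 CPM in FNcKO at 48 h, against 34.1, 36.5 and 36.6 CPM in FNcKO at 0 h. In WT it had 102, 89.8 and 96.4 CPM at 48 h, against 33.5, 33.4 and 27.1 CPM at 0 h. The times were far apart in both genotypes. Dusp6 rose 2.99-fold in FNcKO (log2 1.58 ± 0.17, adjusted p = 5.7e-05) and 3.07-fold in WT (log2 1.62 ± 0.17, adjusted p = 3.5e-05). It was called in all 22 alternatives, with log2 values of 1.46 to 1.87 in FNcKO and 1.52 to 1.83 in WT. Per length it stood next to Fgfr1 at 48 h, at 38.2 ± 7.85 RPKM in FNcKO and 34.4 ± 2.21 RPKM in WT, whereas at 0 h it had 12.8 ± 0.50 RPKM in FNcKO and 11.2 ± 1.31 RPKM in WT. A microRNA entry, Mir7669, is listed with a span from base 79747709 to 127265101, which covers the whole of Dusp6. That span reaches far beyond Dusp6 on both sides, so the overlap is not particular to this gene.

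The 3 Sprouty genes did not move alike. Spry4 had 10.2, 17.6 and 14.1 CPM in FNcKO at 48 h, against 8.27, 6.46 and 5.02 CPM in FNcKO at 0 h. In WT the levels were 10.9, 9.92 and 11.1 CPM at 48 h, against 5.42, 6.32 and 3.98 CPM at 0 h. The times did not overlap, and Spry4 rose 2.11-fold in FNcKO (log2 1.08 ± 0.29, adjusted p = 0.0147) and 2.03-fold in WT (log2 1.02 ± 0.29, adjusted p = 0.0160). The call was lost in 3 of 22 alternatives in each genotype: in WT without WT 0 h replicate 3 (adjusted p = 0.0700), in FNcKO without FNcKO 0 h replicate 3 (0.0526) or FNcKO 48 h replicate 2 (0.0702), in WT with the combined table's column for WT 0 h replicate 1 (0.0716), and in both without the 48 h libraries lowest in fiber markers (0.0502 in FNcKO and 0.0532 in WT). Without both 0 h replicate 1 libraries it was called in both, at 1.28 in FNcKO (adjusted p = 0.0282) and 1.04 in WT (adjusted p = 0.0422).

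Spry2, the Sprouty gene with the highest mean level per length in each group, stayed within a narrow band. It had 45.7, 46.1 and 60.9 CPM in FNcKO at 48 h and 38.2, 42.1 and 47.2 CPM in FNcKO at 0 h, and 40.4, 52.5 and 42.1 CPM in WT at 48 h and 39.0, 41.6 and 34.5 CPM in WT at 0 h. The libraries of the 2 times overlapped in both genotypes, with log2 fold changes of 0.26 ± 0.17 in FNcKO (adjusted p = 0.287) and 0.23 ± 0.17 in WT (adjusted p = 0.317). With library totals in place of TMM it was called in FNcKO (0.56, adjusted p = 0.0417), a scaling that moved the median of all tested genes to 0.29 in that comparison.

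Spry1 spread widely at 48 h. It had 66.0, 57.0 and 20.8 CPM in FNcKO at 48 h and 35.1, 40.5 and 71.3 CPM in FNcKO at 0 h, and 24.4, 57.7 and 34.1 CPM in WT at 48 h and 28.8, 26.8 and 35.1 CPM in WT at 0 h. Its lowest 48 h libraries were FNcKO replicate 3 and WT replicate 1, those with the lowest fiber cell marker sums. Its log2 fold change was −0.03 ± 0.42 in FNcKO (adjusted p = 0.974) and 0.36 ± 0.42 in WT (adjusted p = 0.545). Without these 2 libraries the values were 0.33 in FNcKO (adjusted p = 0.510) and 0.59 in WT (adjusted p = 0.168), so the sign in FNcKO turned and neither was called. Per length the Sprouty sum was 46.7 ± 5.35 RPKM in FNcKO at 48 h, against 41.5 ± 9.58 RPKM in FNcKO at 0 h, and 39.4 ± 9.84 RPKM in WT at 48 h, against 31.7 ± 0.37 RPKM in WT at 0 h. Spry4 made up 6.60% ± 1.91 and 3.69% ± 1.59 of it in FNcKO at 48 h and 0 h, and 6.17% ± 1.69 and 3.60% ± 0.78 in WT at 48 h and 0 h.

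Etv5 (chr16:22381313-22439570), an ETS transcription factor downstream of FGF receptors, did not move with Dusp6 and Spry4. It had 134, 126 and 112 CPM in FNcKO at 48 h, against 140, 140 and 135 CPM in FNcKO at 0 h, and the 48 h libraries all lay below the 0 h libraries by a narrow margin. In WT it had 101, 98.0 and 101 CPM at 48 h, against 135, 102 and 89.4 CPM at 0 h, with overlap. Its log2 fold change was −0.15 ± 0.16 in FNcKO (adjusted p = 0.518) and −0.12 ± 0.16 in WT (adjusted p = 0.578), and with library totals both turned to 0.12 and 0.09. Etv4, a close relative of Etv5, rose 4.06-fold in FNcKO (log2 2.02 ± 0.29, adjusted p = 0.000424) and 4.26-fold in WT (log2 2.09 ± 0.30, adjusted p = 0.000265).

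Ordered by mean RPKM, Dusp6 moved up the most places of the 10 genes and Fgf1 and Fgfr3 moved down. In FNcKO Dusp6 ranked 2 at 48 h and 7 at 0 h, and in WT 2 at 48 h and 8 at 0 h. Fgfr3 ranked 6 at 48 h in both genotypes, against 1 in FNcKO at 0 h and 2 in WT at 0 h. Fgf1 ranked 10 at 48 h in both genotypes, against 8 in FNcKO at 0 h and 6 in WT at 0 h. Fgfr1 ranked 1 at 48 h and 3 at 0 h, Etv5 ranked 3 or 4 in all groups and Spry2 ranked 5 in all groups. Neighbours whose libraries overlapped, and which are therefore not separated beyond their spread, included Dusp6 and Etv5, Etv5 and Fgfr2, Fgfr2 and Spry2, and Fgfr3 and Spry1 in FNcKO at 48 h. In WT at 48 h they included Fgfr2 and Etv5, Spry2 and Fgfr3, and Fgfr3 and Spry1. Fgfr1 was apart from its lower neighbour in all 4 groups, and Fgf2 and Spry4 were separated by less than the spread in FNcKO at 0 h and at 48 h.

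None of these genes passed the test between the genotypes. In simulated counts that test recovered 34% of 2-fold changes at either time, so a gene not called may still differ. At 48 h, 0 of the 10 genes were called between FNcKO and WT, where 35 genes or 0.24% of all tested genes were called, and log2 values ran from −0.74 for Fgf2 to 0.55 for Fgfr3. At 0 h, 0 of the 10 were called, where 21 genes or 0.144% of all were called, and log2 values ran from −1.73 for Fgf1 to 0.69 for Spry1. At an unadjusted p under 0.05 none of the 10 passed at 48 h, where 796 of all tested genes did, and 2, Fgf1 and Etv5, passed at 0 h, where 1603 did. The same held by DESeq2, which called none of the 10 in either comparison. The libraries of the genotypes did not overlap for 2 of 10 genes at 48 h, Fgf2 and Etv5, where 9.74% of all tested genes had no overlap, and for 4 of 10 at 0 h, Fgf1, Fgf2, Spry1 and Dusp6, where 16.6% had none. Fgf1 at 0 h had the widest gap, with 17.6, 21.4 and 15.6 CPM in FNcKO and 25.7, 70.3 and 85.4 CPM in WT (log2 −1.73 ± 0.52, unadjusted p = 0.00607, adjusted p = 0.311, lower in 3 of 3 FNcKO libraries). Over the alternatives its adjusted p ran from 0.0572 to 0.920. Etv5 at 48 h had 134, 126 and 112 CPM in FNcKO and 101, 98.0 and 101 CPM in WT (log2 0.31 ± 0.16, adjusted p = 0.999). Beside these values, 3 of 9 pigment cell markers and the fibroblast marker Col1a1 were called lower in FNcKO at 48 h, and the part of such cells was not tested.

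The difference between the responses of the genotypes, tested as an interaction, was called for 0 of the 10 genes and for 0 of all 14560 tested genes, a share of 0.0%. In simulated counts the interaction test recovered 9% of 2-fold and 63% of 4-fold differences, so the absence of calls does not show equal responses. At an unadjusted p under 0.05 there were 735 such genes, or 5.05%, none of the 10 among them, and DESeq2 called 28. Fgf1 had the largest value of the 10, 1.14 ± 0.76 (FNcKO minus WT, adjusted p = 0.945), a smaller fall in FNcKO than in WT that was within the spread between libraries, and the other members ran from −0.39 to 0.33. The comparisons share their 0 h and 48 h libraries with those above, so the values of the genotypes are given side by side and not as separate evidence.

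The rest of the pathway was followed in 6 lists of 96 other genes. Of the genes that respond to ERK, 11 of 16 were called higher and none lower in FNcKO and in WT, where 14.9% (FNcKO) and 19.1% (WT) of all tested genes were called higher, with a median log2 fold change of 1.78 in FNcKO and 2.104 in WT, beside 0.00 and 0.02 over all tested genes. Egr1, an immediate early transcription factor, averaged 177 ± 35.0 CPM in FNcKO at 48 h and 17.9 ± 1.03 CPM in FNcKO at 0 h (log2 3.30 ± 0.26, adjusted p = 5.63e-06), and 205 ± 36.7 CPM in WT at 48 h and 12.8 ± 5.29 CPM in WT at 0 h (log2 4.001 ± 0.27, adjusted p = 1.29e-06). Ets1, a founding member of the ETS family, rose 15.3-fold in FNcKO and 17.5-fold in WT, to 56.7 ± 24.97 and 43.8 ± 14.8 CPM. Ier3, an early response gene, rose 11.5-fold in FNcKO and 8.52-fold in WT. Fosl1, a subunit of AP-1, had 142 counts in all FNcKO 48 h libraries together and 3 in those at 0 h, and 69 in WT at 48 h and 2 in WT at 0 h, and was called higher in both. Several of these genes also answer to signals other than FGF, and the list does not separate them.

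In the list of other negative regulators of ERK signalling, 6 of 18 tested genes were called higher and 2 lower in FNcKO, and 9 higher and 1 lower in WT. Among all tested genes 14.9% were called higher and 9.9% lower in FNcKO, and 19.1% higher and 13.5% lower in WT. The median log2 fold change was 0.45 in FNcKO and 0.36 in WT. Dusp5, a nuclear ERK phosphatase, rose 25.9-fold in FNcKO, to 35.5 ± 15.6 CPM against 1.33 ± 1.09 CPM, and 17.3-fold in WT, to 28.5 ± 8.003 CPM against 1.63 ± 1.01 CPM. Dusp10 is in the list although it is a phosphatase of the p38 and JNK kinases, and it is among the genes counted as higher. It rose 5.25-fold in FNcKO and 5.87-fold in WT. Dusp4, another nuclear phosphatase, rose 4.61-fold in FNcKO and 3.92-fold in WT. Spred1 and Spred3, relatives of the Sprouty genes, were called higher in both genotypes, and Spred2 was called in WT. Dusp1, a nuclear phosphatase induced by stress, was called lower in FNcKO (log2 −1.56 ± 0.33, adjusted p = 0.00442) and had −0.68 ± 0.32 in WT (adjusted p = 0.121). Dusp9 had 0 counts in all WT 0 h libraries and 46 in those at 48 h, from 0.19 to 2.86 CPM, and was called higher in WT (adjusted p = 0.0251). In FNcKO it had 33 counts at 48 h and 2 at 0 h (adjusted p = 0.114).

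**Figure D5:**
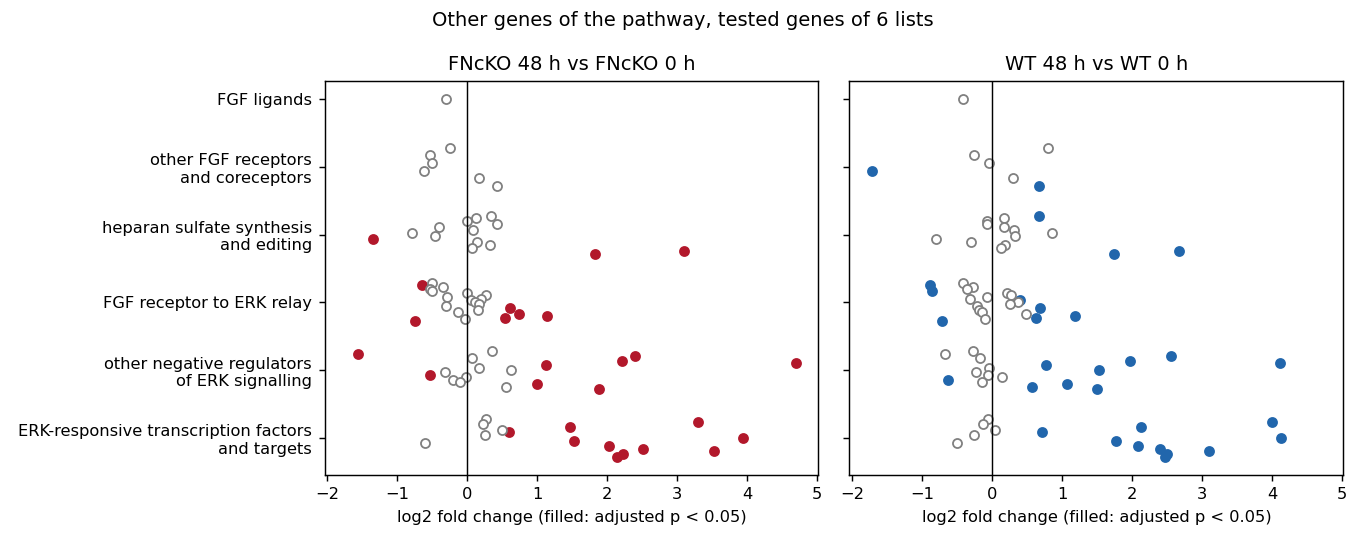
Log2 fold change at 48 h over 0 h (horizontal axis) of the tested genes of 6 lists (vertical axis), in FNcKO on the left and WT on the right. Each point is 1 gene and filled points have an adjusted p under 0.05. Fgf15, Dusp9 and Fosl1, with at most 3 counts in a group, are not drawn. The ERK-responsive list has 11 of 16 tested genes called higher in each genotype, Fosl1 included.

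Of 21 tested genes between receptor and ERK, 4 were called higher and 2 lower in FNcKO, and 4 higher and 3 lower in WT, a share near that over all tested genes (24.8% called in FNcKO and 32.6% in WT), with medians of −0.01 and −0.11. Rps6ka3, a kinase activated by ERK, rose 2.19-fold in FNcKO and 2.27-fold in WT. Rps6ka1, its relative, was called higher in FNcKO (log2 0.74 ± 0.23, adjusted p = 0.0304) and had 0.49 ± 0.23 in WT (adjusted p = 0.113). Sos2, an exchange factor for Ras, fell by 0.75 and 0.72 on the log2 scale in FNcKO and WT, and Braf, the kinase upstream of MEK, fell by 0.65 and 0.89. Gab1, a docking protein, was called lower in WT (−0.86 ± 0.18, adjusted p = 0.00335) and had −0.51 ± 0.18 in FNcKO (adjusted p = 0.0550).

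Heparan sulfate is needed for FGF to bind its receptors, and 2 of 14 genes for its synthesis and editing were called higher and 1 lower in FNcKO, and 3 higher and none lower in WT, no more than the share over all tested genes (24.8% called in FNcKO and 32.6% in WT). Sulf2, which removes sulfate groups from heparan sulfate outside the cell, had 56.2 ± 2.51 CPM in FNcKO at 48 h and 6.60 ± 1.84 CPM in FNcKO at 0 h, and 65.3 ± 2.81 CPM in WT at 48 h and 10.2 ± 3.91 CPM in WT at 0 h, rises of 8.51-fold and 6.38-fold. Ugdh, which makes a sugar precursor, rose 3.52-fold in FNcKO and 3.33-fold in WT. Ext1, a chain polymerase, was called higher in WT (log2 0.66 ± 0.18, adjusted p = 0.0129) and had 0.34 ± 0.18 in FNcKO (adjusted p = 0.192), and Hs6st2, a sulfotransferase, was called lower in FNcKO (−1.35 ± 0.42, adjusted p = 0.0328) and had −0.80 ± 0.43 in WT (adjusted p = 0.166).

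Other FGF ligands were scarce. Of 16 genes, 2 passed the filter on low counts and 4 (Fgf4, Fgf6, Fgf16 and Fgf20) had 0 counts in all libraries. Fgf15 had 1 count in all FNcKO 48 h libraries together and 34 in those at 0 h, and 2 in WT at 48 h and 34 in WT at 0 h, and was called lower in both. Fgf9 averaged 2.172 ± 0.69 CPM in FNcKO at 48 h and 2.69 ± 1.37 CPM in FNcKO at 0 h, and 2.89 ± 1.77 CPM in WT at 48 h and 3.87 ± 1.73 CPM in WT at 0 h, and was not called. Among 6 tested receptors and coreceptors none was called in FNcKO, and in WT Flrt3, a membrane partner of FGF receptors, was called higher (log2 0.67 ± 0.16, adjusted p = 0.00616) and its relative Flrt1 lower (−1.72 ± 0.34, adjusted p = 0.00279). In FNcKO Flrt3 had 0.43 ± 0.16 (adjusted p = 0.0633) and Flrt1 −0.61 ± 0.34 (adjusted p = 0.208). Fgfr4 did not pass the filter and had at most 2.87 CPM. Between the genotypes none of the tested genes of the 6 lists was called at 48 h or at 0 h.

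Markers of other cells moved with time beside these lists. Of 14 leukocyte markers in the files 12 were called higher in FNcKO and 13 in WT, and their sum was 244 to 583 CPM in FNcKO at 48 h and 40.9 to 74.6 CPM in FNcKO at 0 h, and 356 to 1255 CPM in WT at 48 h and 51.9 to 114 CPM in WT at 0 h. Of 9 tested endothelial markers 5 were called higher and 1 lower in FNcKO and 4 higher in WT, with sums of 24.9 to 99.4 CPM over all libraries. Of 5 tested fibroblast markers 2 were called higher in FNcKO, and 2 higher and 2 lower in WT, with sums of 104 to 606 CPM and Kera and Dpt at no more than 3 counts in any library. Of 9 pigment cell markers 3 were called lower in FNcKO, and 3 higher and 2 lower in WT, with sums of 18.9 to 461 CPM. None of 10 photoreceptor markers was called, with sums of 289 to 6420 CPM, and 1 of 5 tested corneal epithelial markers was called lower in each genotype, with sums of 376 to 2677 CPM. The part of these cells in the changes of the pathway genes was not tested.

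Likeness of pattern was measured as the mean absolute difference of log2 CPM over 12 libraries after centring each gene on its own mean. Among the 10 genes the closest pairs were Fgfr1 and Spry2 (0.19), Spry2 and Etv5 (0.24), Fgfr1 and Etv5 (0.27) and Spry4 and Dusp6 (0.30), and Fgfr2 and Fgfr3 differed by 0.38. Fgf1 and Fgf2 were farthest apart, at 2.19. Among all other tested genes, Dusp6 was closest to Eif1a, Rnf19b and Mob3a (0.14, 0.14 and 0.15). Fgfr2 was closest to Igdcc4, Dkk3 and Slc38a2 (0.10, 0.11 and 0.14), and Fgfr3 to Arvcf, Sema5b and Sostdc1 (0.17, 0.18 and 0.20). Fgfr1 was closest to Cr1l, Ubxn4 and Sar1a (0.08 to 0.10), Etv5 to Mtpap, Trub2 and Pitpnb (0.09 to 0.10) and Spry2 to Dym, St3gal3 and Sart1 (0.08 to 0.09), all genes of small change. Spry1 was closest to Cpxm2, Efna1 and Fam189a1 (0.21 to 0.23) and Fgf2 to Zc3hav1, Hspb8 and Calcrl (0.25 to 0.31). Fgf1 had no close match, with Gm5820, which it overlaps, at 0.52, Fmo2 at 0.56 and Slco1c1 at 0.57.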

How the data were processed

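Each library file deposited by the authors gives, per the file headers, a whole-number read count per gene, an RPKM value, the position on mm10 and the coding length. The deposited RPKM values matched a recalculation from counts, coding length and library totals (largest relative difference 1.37e-14) and served only as that check; RPKM printed in the text uses TMM-scaled library sizes. The submitters' processing notes name these tools, with no role: edgeR 3.16.5, HTSeq 0.6.1p1, bedtools 2.17, SAMtools 1.4, TopHat2 2.1.0, Trim Galore 0.4.4 and FastQC. The labels name both a TruSeq RNA kit and a stranded one. The annotation, the strand setting and the handling of multiply mapped reads were not stated in what was used here.

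Genes were filtered with filterByExpr, scaled by TMM and fitted by robust quasi-likelihood in edgeR 4.0.16 (R 4.3.3), with 4 group means over all 12 libraries. The 5 comparisons were each adjusted by Benjamini-Hochberg over 14560 genes. The approximate SE is the absolute log2 fold change divided by the square root of F. The fit was tested on simulated data with 200 changed genes per comparison. Between the genotypes it recovered 34% of 2-fold changes at 48 h and 34% at 0 h, and 89% and 86% of 4-fold changes. For the difference of responses it recovered 9% of 2-fold and 63% of 4-fold changes. The 22 alternatives included DESeq2 1.42.0, other scalings and filters, single libraries left out, and a replicate block. The members and lists were chosen with earlier results of these data known. From each pathway list, up to 3 called genes with the largest change in each genotype were picked, and genes named beyond these (Etv4, Dusp1, the Spred genes, Fgf9, Fgfr4 and the ligands at 0 counts) were chosen after their values were seen. The genes closest in pattern to Spry4 are not reported here. The 163 entries that share a symbol were kept as separate rows. In the deposited counts, 3 counts amount to 0.286 to 0.430 CPM, which covers counting error only.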

Additional observations from a re-analysis of the deposited data

How the results depend on the processing

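Each comparison was recomputed under up to 22 alternatives, 1 of which, without both 48 h libraries lowest in fiber cell markers (FNcKO replicate 3 and WT replicate 1), was chosen after seeing the data. Over members and alternatives 827 values kept direction and call, 49 lost the call, 4 gained it and 21 turned in sign, the last all for genes that were not called. Calls of Fgfr2 and Dusp6 in both genotypes and of Fgfr3 and Fgf1 in WT held in all 22. For Spry4 the libraries without which the call was lost are named beside its values, and for Fgf2 the losses are given as counts. Besides the settings named above, Fgf1 in FNcKO was lost without FNcKO 0 h replicate 2 (adjusted p = 0.0606), FNcKO 48 h replicate 2 (0.0584) or FNcKO 48 h replicate 3 (0.0988). It was also lost with the joint table's column for WT 0 h replicate 1 (0.0765). The causes of the shifts were not tested.

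With library totals, Etv5 at 48 h over 0 h was 0.094 in WT and 0.12 in FNcKO, Spry1 in FNcKO 0.27, and FNcKO over WT at 0 h −0.050 for Fgfr1, −0.079 for Fgfr2 and −0.022 for Spry2. Called genes were then 1211 lower in WT at 48 h over 0 h, 3408 higher and 727 lower in FNcKO, and between genotypes 1 higher at 48 h and 3 higher at 0 h. Without both 0 h replicate 1 libraries, Etv5 in WT was 0.062 and Fgfr2 between genotypes at 0 h −0.019, and called genes were 1438 higher and 861 lower in FNcKO at 48 h over 0 h, 2 higher and 12 lower between genotypes at 48 h, and 0 higher and 2 lower at 0 h. Without the 2 libraries lowest in fiber markers, 1 member was called higher in each genotype, Dusp6; Spry1 in FNcKO was 0.33 and Spry2 between genotypes at 48 h −0.034; and called genes were 847 lower in FNcKO, 2 higher and 12 lower between genotypes at 48 h, and 18 higher and 21 lower at 0 h. With the joint table's column for WT 0 h replicate 1, FNcKO over WT at 0 h was −0.013 for Fgfr1, −0.0018 for Fgfr2, −0.041 for Fgfr3 and −0.11 for Spry4, with 0 genes called higher and 0 lower at 0 h, and 1 higher and 8 lower at 48 h. DESeq2 called 28 higher and 94 lower between genotypes at 48 h, 64 higher and 66 lower at 0 h, and 7 higher and 21 lower for the difference of responses. A fit to only the 2 groups compared called 950 lower in FNcKO at 48 h over 0 h, 0 higher and 7 lower between genotypes at 48 h, and 18 higher at 0 h.

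The replicate numbers are shared across groups. Same-numbered libraries deviated from their group means with correlations of −0.47 to 0.29 over all tested genes. Values of mixed sign cannot settle whether the numbers pair the libraries, and the main fit did not pair them. With the replicate block, called genes were 3 higher between genotypes at 48 h, 5 lower at 0 h and 1 lower for the difference of responses, and Fgf2 was the member whose calls were lost, at 2.04 in FNcKO (adjusted p = 0.0702) and 1.70 in WT (adjusted p = 0.0778).

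Leaving out each library in turn, members called higher at 48 h over 0 h were 1 to 2 in FNcKO and 1 to 3 in WT, and lower 2 to 3 in FNcKO and 3 to 3 in WT. The 1 came without FNcKO 0 h replicate 3 or FNcKO 48 h replicate 2, and without WT 0 h replicate 3. Called genes were 1469 to 2365 higher and 763 to 1730 lower in FNcKO, 1985 to 2936 higher and 1198 to 2284 lower in WT, 1 to 7 higher and 9 to 41 lower between genotypes at 48 h, 0 to 14 higher and 2 to 15 lower at 0 h, and 0 higher and 0 to 1 lower for the difference. Log2 values at 48 h over 0 h were −0.25 to 0.063 for Etv5 in WT (the highest without WT 0 h replicate 1), −0.043 to 0.61 for Spry1 in WT (lowest without WT 48 h replicate 2) and −0.33 to 0.33 for Spry1 in FNcKO (above 0.30 without FNcKO 0 h replicate 3 or FNcKO 48 h replicate 3). Between genotypes at 48 h they were −0.068 to 0.48 for Fgfr2 and −0.021 to 0.97 for Fgfr3 (both lowest without FNcKO 48 h replicate 1), and at 0 h −0.030 to 0.23 for Fgfr2 (lowest without WT 0 h replicate 1). Low counts limit Fgf2, Fgf15 and Dusp9.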
